A study of Drosophila melanogaster with 6 samples.

Results

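The genes described are 10 regulators of the Trithorax group and its associated histone-modifying enzymes in Drosophila melanogaster: trx, trr, ash1, Utx, lid, brm, mor, osa, kis and Trl. They were chosen by name, and all 10 were found among the 14862 genes of the table analysed. By the Ensembl annotation trr lies on the X chromosome, Utx, lid and kis on arm 2L, ash1, brm and Trl on arm 3L, and trx, osa and mor on arm 3R. The series compared 2 groups of 3 samples, each holding the RNA of 200 embryos with a labelled age of 16 to 20 h. The InR-DN embryos came from oocytes made to express a dominant-negative insulin receptor, which blocks the normal receptor, and the GFP control embryos from oocytes expressing green fluorescent protein. The sources used here name neither the driver of the transgenes, nor the strain background, nor the fathers of the embryos. They also leave unsaid whether replicates were separate crosses, so the p-values may measure a technical spread only.

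Trithorax group proteins keep developmental genes, the Hox genes among them, in an active state through cell divisions, and they oppose the repressive Polycomb group. They work by several routes: methylating histone H3, removing methyl groups from it, moving nucleosomes with the energy of ATP, and binding DNA at promoters. In the fly many of their transcripts and proteins are loaded into the egg by the mother before the embryo transcribes its own genes.

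The values come from the authors' deposited table of this comparison, fitted with edgeR. Each gene has a log2 fold change, its average log2 level in counts per 1000000 reads (CPM), the statistic of a likelihood ratio test and p-values, and nothing per sample. The table does not say which group is the numerator, so genes are described by the sign of their fold change (its positive or negative side) and no direction by genotype is given. Dividing the absolute log2 fold change by the root of the test statistic gave an implied standard error (SE), written after ± below, from which 95% intervals were computed. Levels of genes with a single read showed that 12 libraries entered the fit, 3 on each side of the comparison and 6 outside it. The 6 compared libraries had effective sizes of 23.4 to 40.5, in units of 1000000 reads. Every average CPM is therefore a mean over 12 libraries, of which 6 were not compared.

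The labelled age was set against defining markers. The 89 cuticle genes, which late embryos use to build the larval skin, averaged 0.0982 CPM at the median and 7.98 CPM at most, per the authors' deposited table. The 13 ovary and eggshell genes averaged 1497 CPM at the median and the 7 germ line genes 158 CPM, per the authors' deposited table. Averaged across all 12 libraries, markers of cuticle, which belong to the labelled stage, were thus close to absent, while transcripts of the ovary were abundant. Because 6 of these libraries were not compared, the averages cannot show how much of the ovary RNA came from the compared embryos. For the cuticle genes an average this low over 12 libraries also means low levels in the 6 compared. The labelled age was therefore not borne out by the cuticle genes, and the reason was not tested. InR, the receptor whose dominant-negative form was expressed, had a log2 fold change of 0.25 ± 0.26 by the authors' deposited table, with an edgeR adjusted p of 1, and does not tell the groups apart.

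All 10 Trithorax group genes were abundant, between 106 and 1236 CPM on average by the authors' deposited table, and none passed the edgeR test. The number called at a Benjamini-Hochberg adjusted p under 0.05 was 0 on either side. The authors' deposited table calls 4.49% of all genes, 2.3% with a positive and 2.19% with a negative fold change, and among the 6398 genes averaging 16 CPM or more 1.38% were called. A count of 0 among 10 genes is near that background. By sign, 9 of the 10 genes were on the positive side, and 8 of 10 once the fold changes were recentred on the median of genes of 16 CPM or more, which turns brm. At an unadjusted p under 0.05 there was 1 gene, trx, against 3.66% of the genes of 16 CPM or more in the same edgeR test.

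Corrected for transcript length, the methyltransferase genes had the lowest average levels of the 10 and the remodelling gene mor the highest. Lengths are those of all annotated exons of a gene joined together, in the Ensembl annotation of the BDGP6 assembly, which may differ from the gene models the authors counted on, and the 10 genes measured 3.98 to 19.2 kb. Per kb of exons, the nucleosome remodelling genes were among the highest, with mor at 95.9, kis at 64.3, brm at 54.0 and osa at 47.7 average CPM per kb. The demethylase genes lid, at 50.5, and Utx, at 39.2 average CPM per kb, lay in the same range, as did Trl with 39.1. The 3 methyltransferase genes were the lowest, with ash1 at 17.9, trr at 12.7 and trx at 12.5 average CPM per kb. These averages carry no spread over samples, so neighbours such as trr and trx, or Utx and Trl, cannot be put in order. On the scale that is not corrected for length kis led, at 1236 average CPM.

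**Figure D1:**
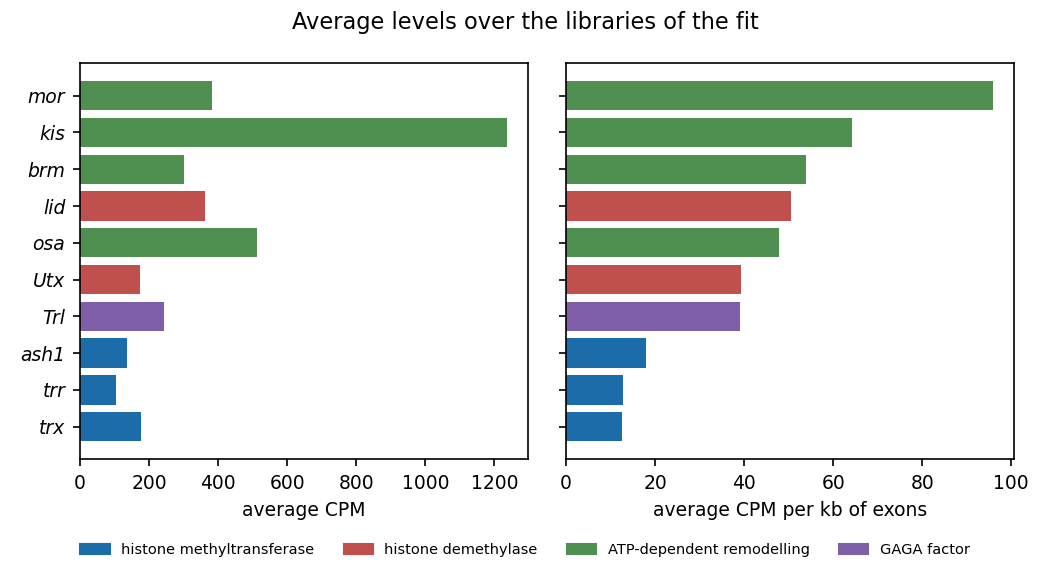
Average level of the 10 genes over the 12 libraries of the authors' fit, as average CPM (left) and as average CPM per kb of joined exons (right); each bar is 1 gene, coloured by role, and no error is available. The 3 methyltransferase genes lie at 12.5 to 17.9 CPM per kb and the 7 other genes at 39.1 to 95.9.

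Among the histone methyltransferase genes trx had the smallest p-value of the whole set. The Trx protein methylates histone H3 at lysine 4, the mark of active promoters and enhancers, and gives the group its name. In the authors' deposited table its log2 fold change was 0.40 ± 0.19 (95% interval 0.02 to 0.78), with an unadjusted p of 0.0385 and an edgeR adjusted p of 0.415. Of all genes listed, 9.27% had a smaller p-value than trx. The related gene trr, whose product marks enhancers in a complex with Utx and serves as a co-activator of the ecdysone receptor, had 0.16 ± 0.18 by the authors' deposited table, with an edgeR adjusted p of 1. For ash1, whose product methylates lysine 36 of histone H3 and limits Polycomb silencing, the value was 0.11 ± 0.20 by the authors' deposited table, also with an edgeR adjusted p of 1. The 3 intervals overlap one another, and no test of the difference between genes can be made without values per sample.

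The demethylase genes lay close to 0. Utx removes methyl groups from lysine 27 of histone H3, the mark that Polycomb complexes set. It was the only one of the 10 genes on the negative side, with -0.01 ± 0.31 (95% interval -0.62 to 0.60) by the authors' deposited table. The gene lid encodes the demethylase of trimethylated lysine 4 of histone H3 and was placed in the Trithorax group by its mutant phenotype. Its log2 fold change was 0.10 ± 0.22 by the authors' deposited table. Both had an edgeR adjusted p of 1, with unadjusted p-values of 0.970 for Utx and 0.651 for lid.

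The core of the Brahma remodelling complexes was equally close to even. The ATPase gene brm had a log2 fold change of 0.01 ± 0.21 (95% interval -0.40 to 0.42) and its scaffold partner mor had 0.07 ± 0.22 by the authors' deposited table. The gene osa encodes the subunit that defines the BAP form of the complex and had 0.12 ± 0.31 by the authors' deposited table. Each of these genes had an edgeR adjusted p of 1. The interval of brm allowed folds of 0.759 to 1.34, that of mor 0.777 to 1.42 and that of osa 0.717 to 1.66, so a difference of 2-fold lay outside all of them.

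The largest fold change of the set was that of kis, which encodes a remodelling ATPase of the CHD class that promotes transcription elongation. Its log2 fold change was 0.49 ± 0.28 (95% interval -0.07 to 1.04) by the authors' deposited table, with an unadjusted p of 0.0845 and an edgeR adjusted p of 0.643. It was also the only one of the 10 genes whose interval reached a 2-fold difference. Trl encodes GAGA factor, a DNA-binding protein that opens promoters rich in GA repeats. It had 0.27 ± 0.21 by the authors' deposited table, with an edgeR adjusted p of 0.931. In the annotation 71.0% of the exonic bases of Trl also belong to CG42507 on the same strand, which had 0.27 at 216 CPM by the authors' deposited table, so reads of these genes may not be separable and the value of Trl is uncertain. For each of the other 9 genes the exonic bases shared with any single other gene were 4.06% or less.

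**Figure D2:**
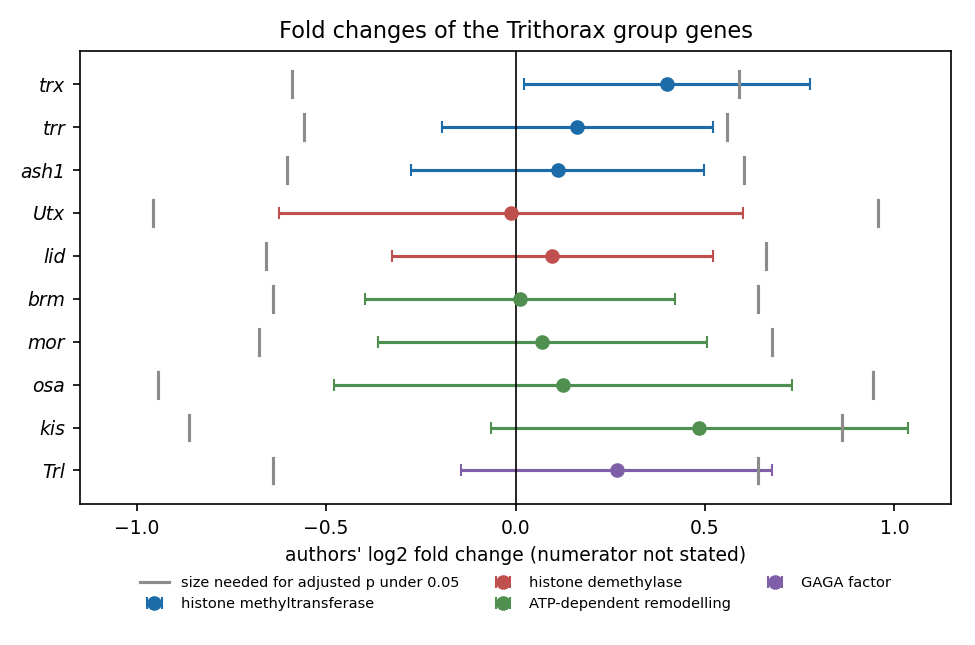
Authors' log2 fold change of each gene (point) with its 95% interval from the implied SE (bar); grey ticks mark the size at which that gene would have had an adjusted p under 0.05. No point reaches its tick; the largest values are 0.49 for kis and 0.40 for trx.

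The size of difference that could have been called was moderate. With each gene's implied SE, a call needed a log2 fold change of 0.56 for trr, 0.59 for trx and 0.60 for ash1, up to 0.94 for osa and 0.96 for Utx. On a linear scale this is 1.47-fold for trr and 1.94-fold for Utx. The implied SEs of the 10 genes, 0.18 to 0.31, would follow from a coefficient of variation between libraries of 15.5% to 26.5% if counting noise were nil. If all of the noise were counting noise, they would need 14.2 to 41.8 reads per compared library, which is a lower limit on the reads behind each gene. A p above the threshold therefore does not show that the groups were equal: for 9 of the 10 genes the 95% interval holds 0, and it also holds folds up to 1.34 or more. The spread behind the implied SEs may come from all 12 libraries of the fit, and need not be that of the 6 compared. Over genes of 16 CPM or more the log2 fold changes had quartiles of -0.07 and 0.11, beside a median implied SE of 0.23. That scatter is narrower than such an SE would give, so the SEs, intervals and sizes needed may be too wide for this comparison.

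Partners and related chromatin genes, called partner genes here, were read from 6 lists fixed by function. The lists hold 56 genes, of which 55 were found in the table. Only the COMPASS and Brahma lists are of subunits of the same complexes. The other lists hold further chromatin enzymes and factors, many of them outside those complexes. None of the 55 passed the edgeR threshold in either direction and 0 had an unadjusted p under 0.05. Among genes of 16 CPM or more those shares were 1.38% and 3.66%, and counts of 0 in 55 are not far from them. The median log2 fold change of the 55 was 0.03 by the authors' deposited table. For comparison, the median was 0.02 over all genes of 16 CPM or more by the authors' deposited table and 0.12 over the 10 Trithorax group genes.

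The 11 partners of the lysine 4 methyltransferases, the COMPASS subunits, had a median log2 fold change of -0.03 by the authors' deposited table, with 4 positive and 7 negative genes. The COMPASS gene with the smallest p was ptip, a subunit found with Trr and Utx, at 0.22 ± 0.19 by the authors' deposited table. Dpy-30L1, a small subunit shared by the lysine 4 complexes, had -0.13 ± 0.23, and Wdr82, a subunit of the SET1 form, had -0.11 ± 0.20 by the authors' deposited table. None of the 3 was called.

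The 8 further Brahma complex genes had a median of -0.05 by the authors' deposited table, with 3 positive and 5 negative genes. The bromodomain gene CG7154 had -0.32 ± 0.18 by the authors' deposited table, with an unadjusted p of 0.0680 and an edgeR adjusted p of 0.593. The subunits that mark the PBAP form were on the other side: Bap170 had 0.15 ± 0.19 and e(y)3 had 0.19 ± 0.28 by the authors' deposited table. These PBAP values and the 0.12 of osa, which marks the BAP form, differ by less than any of their SEs.

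Among the 6 other histone demethylases Kdm4A, an enzyme for methylated lysine 9 and lysine 36 of histone H3, had 0.36 ± 0.22 by the authors' deposited table and an edgeR adjusted p of 0.749. Per the authors' deposited table the lysine 9 demethylase gene JHDM2 had -0.19 ± 0.22 and Kdm2 had 0.13 ± 0.20. Of the 11 other remodelling genes found, 8 were on the positive side, with a median of 0.06 by the authors' deposited table. The ISWI partner gene tou had 0.25 ± 0.25, the ATPase gene dom had 0.24 ± 0.26 and the CHD class gene Chd3 had -0.22 ± 0.31 by the authors' deposited table.

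The 8 other histone methyltransferase genes had a median of 0.07, led by gpp, a methyltransferase for histone H3 of the Dot1 type, with 0.33 ± 0.20 (unadjusted p 0.0950) by the authors' deposited table. Set2, which methylates lysine 36 of histone H3, had 0.21 ± 0.20, and egg, which methylates lysine 9, had -0.11 ± 0.18 by the authors' deposited table. Genes with Trithorax phenotypes or binding to GAGA factor had the highest list median, 0.12 over 11 genes, 9 of them on the positive side by the authors' deposited table. Their leading genes were the SUMO ligase relative tna at 0.38 ± 0.20 (unadjusted p 0.0526), the acetyltransferase gene nej at 0.58 ± 0.33 (unadjusted p 0.0813) and the Mediator gene skd at 0.26 ± 0.22 by the authors' deposited table.

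**Figure D3:**
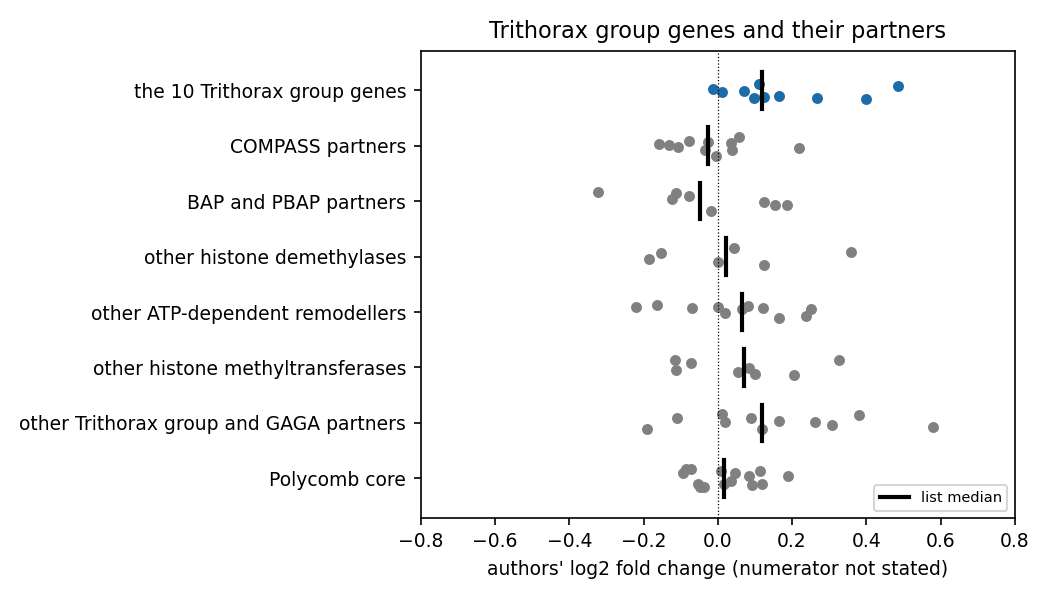
Authors' log2 fold change of the 10 Trithorax group genes (blue), of the genes of 6 partner lists and of the Polycomb core (grey); each point is 1 gene and each black line a list median. The medians run from -0.05 for the Brahma complex partners to 0.12 for the 10 genes and for the list of other Trithorax group and GAGA partners.

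The opposing Polycomb core had a median of 0.02 by the authors' deposited table, close to even as well. Of its 15 genes 0 were called by edgeR and 0 had an unadjusted p under 0.05. Among genes of 16 CPM or more those shares were 1.38% and 3.66%, so counts of 0 in 15 are near that background. The Polycomb accessory gene Jarid2 and the paralogs ph-p and ph-d had the smallest p-values, with 0.12 ± 0.22, 0.11 ± 0.22 and 0.09 ± 0.19 by the authors' deposited table; reads may be split between ph-p and ph-d, which are near-identical in part. Of the 8 Hox genes, the classical targets of both groups, 1 was called by edgeR, where 4.49% of all genes were. It was abd-A on the negative side, with -1.08 ± 0.35 (edgeR adjusted p 0.0439) by the authors' deposited table. The implied SEs of the 8 Hox genes ran from 0.35 to 1.60, and a count of 1 in 8 is too small to set against that share. The call of abd-A was lost at an adjusted p under 0.01 and with adjustment over genes of 16 CPM or more only. By the authors' deposited table Abd-B (-2.38 ± 0.91) and lab (1.54 ± 0.96) came next and did not pass the edgeR threshold.

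The fold changes of the 10 genes followed the length of their transcripts. The longest, kis with 19.2 kb of exons and trx with 14.1 kb, had the largest log2 fold changes, 0.49 and 0.40 by the authors' deposited table. The 3 genes under 6 kb, brm (5.60 kb), Utx (4.42 kb) and mor (3.98 kb), had a median of 0.01, against 0.16 for the 7 genes of 6 kb or more by the authors' deposited table. Across the 10 genes Spearman's rho between exonic length and log2 fold change was 0.83 and Pearson's r with log2 length was 0.84. Without trx and kis rho was 0.67 over 8 genes, and without Trl, whose reads may be shared, it was 0.93. With the average CPM in place of length rho was 0.14. These correlations are across genes that share the same libraries, which are not independent replicates, and they serve as a description.

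The same relation ran through the whole table. Of the 6398 genes of 16 CPM or more, 6313 (98.7%) had an annotated length. Leaving the 10 genes out, the median log2 fold change was -0.01 for genes under 1 kb of exons, 0.00 for 2 to 3 kb, 0.07 for 4 to 6 kb, 0.11 for 6 to 8 kb, 0.17 for 8 to 12 kb and 0.30 for 12 kb or more by the authors' deposited table. The share of genes on the positive side was 46% under 1 kb, 84.0% at 6 to 8 kb, 91.0% at 8 to 12 kb and 86.7% at 12 kb or more. Over all 6313 genes Spearman's rho was 0.28. Within each range of level the longest genes had the highest median. Among genes of 256 CPM or more there was no rise below 3 kb, with medians of 0.05 under 1 kb and 0.01 at 2 to 3 kb. At 12 kb or more the median was 0.34 for 24 genes of 16 to 64 CPM, 0.29 for 46 genes of 64 to 256 CPM and 0.28 for 30 genes of 256 CPM or more by the authors' deposited table. The 10 genes are long: only 23.7% of genes of 16 CPM or more have more exonic bases than mor, the shortest of them.

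Set beside genes of their own length, 5 of the 10 genes were above and 5 below the median of the other genes in their length range. All 10 were within 1 implied SE of that median, but the SEs were wide beside the scatter of genes. The other genes of 6 to 8 kb had quartiles of 0.04 and 0.20 and a median implied SE of 0.22. Lying within 1 SE was therefore common and says little about these 10 genes. The 98 other genes of 12 kb or more had a median of 0.30 by the authors' deposited table, and trx lay 0.10 and kis 0.19 above that. For ash1 and trr the difference from genes of their length rounded to 0.00, for lid it was -0.01, for osa -0.04, for brm -0.05 and for Utx -0.08. The furthest above in units of its SE was Trl, by 0.16 or 0.746 of its implied SE, with 90.1% of the other genes of 6 to 8 kb below it. The share on the positive side was 9 of 10 for these genes and 57.0% for all genes of 16 CPM or more. For the other genes in their length ranges it was 59.0% at 3 to 4 kb and 70.3% at 4 to 6 kb. In the longer ranges it was 84.0% at 6 to 8 kb, 91.0% at 8 to 12 kb and 86.7% at 12 kb or more. What part length has in the values was not tested.

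The partner lists showed the relation too. Of the 5 partner genes of 12 kb or more all 5 were on the positive side, with a median of 0.26, and of the 11 of 6 to 8 kb 10 were on that side by the authors' deposited table. Of the 6 partner genes of 3 to 4 kb 1 was on the positive side, and of the 9 of 2 to 3 kb 3 were, by the authors' deposited table. Spearman's rho between length and log2 fold change was 0.64 over the 55 partner genes. The COMPASS partners, with a median exonic length of 2.40 kb, and the Brahma complex partners, with 2.75 kb, had the negative medians. The list of other Trithorax group genes and GAGA partners, with 7.60 kb, had a median as high as that of the 10 genes. The median length of the 10 was 7.39 kb. Whether length accounts for these medians was not tested.

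**Figure D4:**
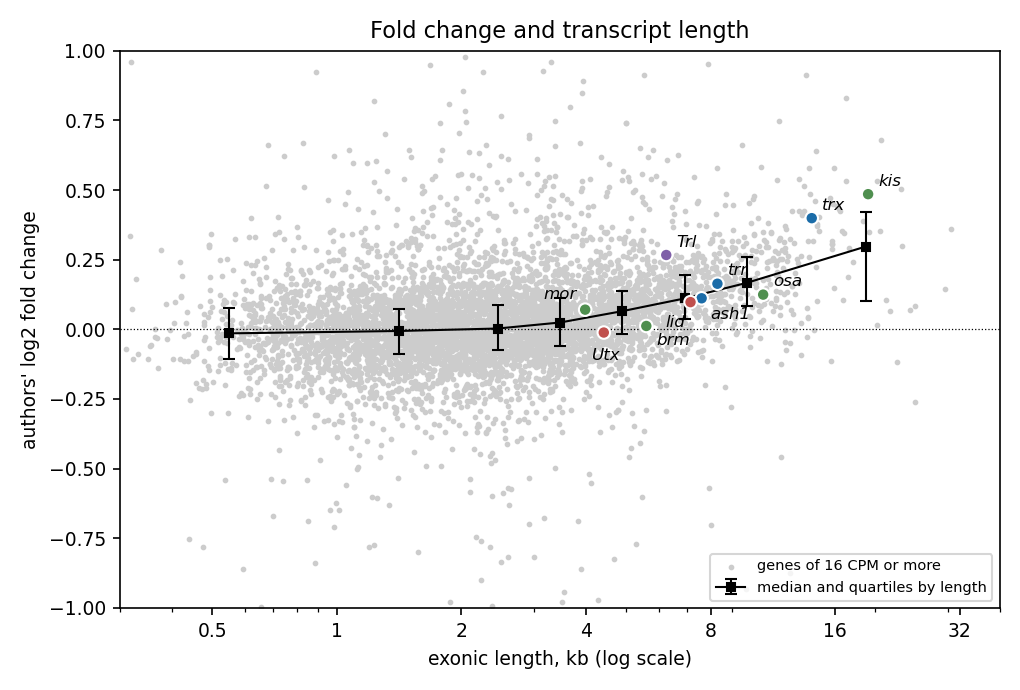
Authors' log2 fold change against exonic length in kb (log axis) for genes of 16 CPM or more (grey), with the median and quartiles of the other genes in 8 length ranges (black, drawn at the middle of each range) and the 10 Trithorax group genes (coloured by role). The medians lie near 0 up to 3 kb and reach 0.30 at 12 kb or more, and the 10 genes lie along them. Of the genes with an annotated length 6184 are drawn and 129 fall outside the axes. Genes without an annotated length are not shown.

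Markers of other tissues are given by their counts, and no difference between these lists was tested. All 9 muscle markers were on the positive side with a median of 0.54, 1 of them called by edgeR. These 9 averaged only 2.45 CPM at the median, with 3 at 16 CPM or more, and 4 had an unadjusted p under 0.05 by edgeR. Over all 14862 genes 4.49% were called and 1488 had an unadjusted p under 0.05. The 7 germ line markers had a median of 0.11 with 7 on the positive side and 0 called by the authors' deposited table. For the 13 ovary and eggshell markers the median was 0.18, with 12 on the positive side and 0 called, by the authors' deposited table. The 6 neuron markers had a median of -0.26 with 2 on the positive side and 0 called, and of the 89 cuticle genes 1 was called with a positive and 3 with a negative fold change by the authors' deposited table. In whole embryos fewer cells of a type and less RNA per cell cannot be told apart, and the part of these tissues in the values of the 10 genes was not tested.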

How the data were processed

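Per the labels' protocols, TriPure reagent was used to isolate RNA and a TruSeq stranded total RNA kit from Illumina to prepare libraries; the descriptions also name polyA selection. FastQC, Bowtie and TopHat were used, per the submitters' processing notes. The sources used here give no versions, read counter or genome build and do not say whether counting used strand, so no coordinates are printed. The file is the authors' deposited table of edgeR's likelihood ratio test, per the file headers. Its log2 values are the authors' fold change and average log2 CPM, its score is the authors' likelihood ratio statistic, and its p-values are the authors' unadjusted and Benjamini-Hochberg adjusted ones. Both p-values were recomputed from the deposited statistic with largest differences of 6.38e-15 and 3.55e-15. There are 0 columns of other samples.

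The planned use of the deposited test at a threshold of 0.05 was kept, with no refit. The implied SE treats the likelihood ratio test as a Wald test and takes 3 libraries on each side. It was tested on simulated data whose spread between libraries was known in advance. Those data cannot show how well the authors' fit of 12 libraries estimated that spread. Library sizes were solved from the 12 average levels of single-read genes with a prior count of 2. The dispersion, a measure of spread between libraries, was set at 0.0533. That value brought the levels predicted for 2-read genes closest to those present. Of 78 such predicted levels 76 were present within 1e-05, and this match is not an independent check. Names were matched through the RefSeq and Ensembl release 115 annotations for 14707 genes (99.0%). The computations used Python 3.11.15, numpy 2.4.6, scipy 1.17.1 and pandas 2.3.3. The genes and lists were chosen with earlier results of these data known. The genes named besides the 10 are InR, the 3 of each list with the smallest p-values, any called list gene and, chosen after its values were seen, CG42507. The alternatives were a threshold of 0.01, adjustment over genes of 1 or 16 CPM or more, recentring on the median of abundant genes, and an unadjusted p for counts. Recentring by length and the length of the longest transcript were chosen after seeing the data.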

Additional observations from a re-analysis of the deposited data

How the results depend on the processing

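No paired analysis was possible because the authors' deposited table holds no value per sample, and for the same reason no replicate could be left out. None of the 10 genes was called at an adjusted p under 0.01, with adjustment over genes of 1 CPM or more or of 16 CPM or more, or after either recentring; an unadjusted p under 0.05 gave 1, trx. Recentring on the median of genes of 16 CPM or more, a shift of 0.02, turned brm to -0.0098. Recentring by exonic length turned trr to -0.0034, brm to -0.053, osa to -0.042 and lid to -0.013; trx and kis stayed positive. The Hox count of 1, abd-A, became 0 at an adjusted p under 0.01 and with adjustment over genes of 16 CPM or more, and 2 at an unadjusted p under 0.05; the cause was not tested. The counts of the other 7 lists stayed at 0 in every alternative run. With the longest annotated transcript in place of joined exons, the median log2 fold change at 12 kb or more was 0.36, against 0.30, and Spearman's rho over the 10 genes was 0.78, against 0.83. Levels in single samples could not be read, so a library that stands apart could not be seen.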
